A study of Mus musculus with 35 samples.

Results

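The embryonic limb was compared with the maxillary prominence (MXP), the outgrowth of the first pharyngeal arch that forms the upper jaw, cheek and secondary palate. All 6 libraries that the labels title as limb and all 5 titled as MXP were used, which is 11 of the 35 libraries of the series. The other 24 libraries come from the frontonasal and mandibular prominences (FNP and MNP) and from dorsal and ventral neural tissue. Limb and MXP alike were taken from wild type embryos of the outbred CD1 mouse strain at embryonic day 11.5, with no treatment or engineered allele in either group. Each library holds tissue pooled from several embryos, and the sources do not say whether forelimb, hindlimb or both were taken. The p-values therefore measure the spread between pools.

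RNA abundance was read as FPKM (fragments per kilobase of transcript, set against the mapped total of each library), summed per gene symbol. The deposited tables hold no counts. A transcript at 1 FPKM had a mean read depth of 3.25 to 5.17 per base over the 11 libraries, and 11742 to 12540 genes reached 1 FPKM in a library. The correlation of log2 values was 0.951 to 0.987 between limb libraries, 0.964 to 0.978 between MXP libraries and 0.910 to 0.968 between limb and MXP libraries. Transcripts under 200 bases took 39.2% of all FPKM in limb 1 and 19.1% in MXP 1, against 0.930% to 10.3% in the other 9 libraries. Limb 1 and MXP 1 were sequenced in the same run. Because a pool of whole tissue was measured, fewer cells of a type and less RNA per cell cannot be told apart.

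Limb and facial outgrowths share a plan: mesenchyme grows out beneath an ectodermal cover that sends Fgf, Wnt, Bmp and Hedgehog signals. Limb mesenchyme descends from lateral plate mesoderm and carries a Hox code, in which genes at the 5′ end of the HoxA and HoxD clusters lay down the wrist, ankle and digits. Most mesenchyme of the MXP descends from cranial neural crest that lies in front of the Hox territory. Its position within the face is set by other homeobox factors, among them the Dlx, Alx, Barx and Lhx families.

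A gene was called when its Benjamini-Hochberg adjusted p in limma was under 0.05 and its fold change was at least 2 on the log2(FPKM + 1) scale. Of 13934 tested genes, 201 (1.44%) were called higher in limb and 264 (1.89%) lower in limb, together 3.34%. Over all tested genes the limb libraries lay wholly above the MXP libraries for 555 genes (3.98%) and wholly below them for 655 (4.7%). The median log2 difference, limb minus MXP, was 0.0017. Within the libraries numbered 1 to 3 alone (3 of each tissue) 206 genes were called higher and 244 lower. Within those numbered 4 to 6 (3 limb and 2 MXP) the counts were 111 and 92. The difference between these sequencing sets was itself tested as an interaction in limma, which called 0 genes at an adjusted p under 0.05 and 61 at an unadjusted p under 0.05. Among 13934 genes, 61 is far fewer than that unadjusted cutoff marks by chance alone. The test was thus too conservative to show that the sets agree, and nothing is read from its count of 0.

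**Figure D1:**
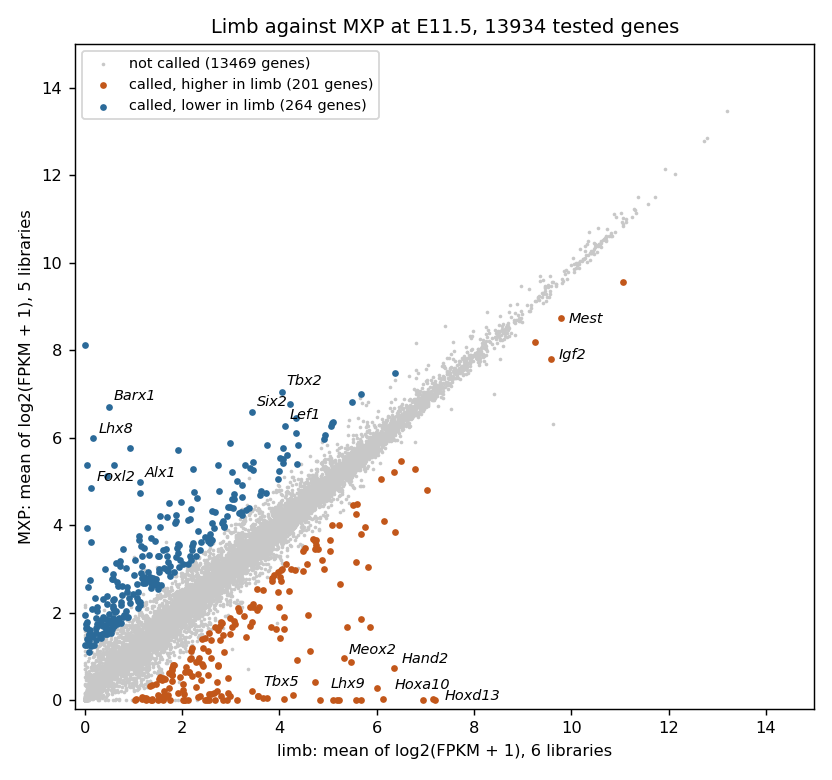
Mean log2(FPKM + 1) of each of the 13934 tested genes in limb (x axis, 6 libraries) against MXP (y axis, 5 libraries), with the 201 genes called higher in limb in orange and the 264 called lower in blue. Points along the bottom edge are genes at or near 0 FPKM in MXP, among them Hoxd13 and Hoxa10, while genes at or near 0 in limb, such as Barx1 and Lhx8, rise along the left edge.

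Nearly every Hox gene above the filter was higher in limb. Of 39 Hox genes, 32 passed the filter on low values, and 31 of those were called higher in limb and 0 lower. For all 32 the limb libraries lay above the MXP libraries. The exception to the call was Hoxb6, at between 0.510 and 2.18 FPKM in limb (median 0.794), against 0, 0, 0, 0 and 0 FPKM in MXP (log2 difference 0.99, adjusted p = 6.49e-06), just under the required fold.

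Hoxd13, the last gene at the 5′ end of the HoxD cluster and a factor of digit formation (chr2:74668310-74671598 in mm10), had 103, 256, 262, 52.6, 123 and 214 FPKM in limb libraries 1 to 6. The MXP libraries, given throughout in the order 1, 2, 3, 5 and 6, had 0, 0, 0, 0 and 0.0231 FPKM. The groups were far apart (log2 difference 7.19 ± 0.22, adjusted p = 3.62e-23; the error after each log2 difference is the standard error), with limb 4 the lowest limb library by a wide margin. Hoxa13, its counterpart in the HoxA cluster, had 27.6, 58.5, 59.5, 10.1, 37.0 and 54.4 FPKM in limb 1 to 6 and was listed at 0 in all 5 MXP libraries (adjusted p = 1.63e-18). Limb 4 was again lowest and limb 2, 3 and 6 were highest. Hoxd13 and Hoxa13 averaged at most 0.043 FPKM in every tissue other than limb. Their standard errors, drawn from all 35 libraries, therefore understate the spread of the limb pools, and the p-values share this limit. The same holds for other genes that were near 0 outside the limb, both Hox genes and others such as Evx1 and Bhlha9, given below.

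Within the HoxD cluster the limb level was higher toward the 5′ end. The mean over the 6 limb libraries was 2.24 FPKM for Hoxd3, 5.20 for Hoxd4, 11.2 for Hoxd8, 28.4 for Hoxd9, 47.1 for Hoxd10, 71.2 for Hoxd11, 53.9 for Hoxd12 and 168 for Hoxd13. FPKM is scaled by transcript length, so these levels can be set side by side, with a limit for Hoxd3 and Hoxd4. In the deposited gene models the span of Hoxd3 covers that of Hoxd4, and how any shared reads were split is not stated. Over the limb libraries the ranges of Hoxd8 (7.23 to 15.6 FPKM) and Hoxd9 (20.5 to 41.0 FPKM) did not overlap. The ranges of every other pair of neighbours did, among them Hoxd10 (40.3 to 54.5 FPKM), Hoxd11 (48.9 to 102 FPKM) and Hoxd12 (21.6 to 70.7 FPKM). Within a library, the level was higher at each step from Hoxd3 to Hoxd10, and for Hoxd13 over Hoxd12, in all 6 limb libraries. Hoxd11 was above Hoxd10 in 5 of 6 and Hoxd12 above Hoxd11 in 1 of 6. In MXP the highest value of any of these genes in any library was 0.158 FPKM, for Hoxd8, and Hoxd10 was listed at 0 throughout.

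In HoxA the level was uneven up to Hoxa7 and peaked at Hoxa10. The deposited span of Hoxa3 covers Hoxa4, Hoxa5 and Hoxa6, and how any shared reads were split is not stated, so the levels of these genes are less certain. Limb means were 1.89 FPKM for Hoxa2, 4.98 for Hoxa3, 1.40 for Hoxa4, 11.7 for Hoxa5, 5.64 for Hoxa6, 7.97 for Hoxa7, 33.6 for Hoxa9, 124 for Hoxa10, 36.8 for Hoxa11 and 41.2 for Hoxa13. Hoxa10 was between 109.9 and 141 FPKM in limb (median 123), against 0, 0, 0.0264, 0 and 0 FPKM in MXP (log2 difference 6.95 ± 0.06, adjusted p = 2.17e-39). Every limb library of Hoxa10 was above every limb library of Hoxa9 (25.7 to 38.9) and of Hoxa11 (26.2 to 42.6). Hoxa11, which patterns the forearm and lower leg, was listed at 0 in all 5 MXP libraries (adjusted p = 6.21e-33). Its antisense transcript Hoxa11as was between 62.4 and 210.1 FPKM in limb (median 169), against 0.0464, 0, 0, 0 and 0 FPKM in MXP. Hoxa11 and Hoxa11as share 686 bases and the tables do not state strand, so reads from the shared stretch cannot be told apart.

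HoxC and HoxB genes were lower in the limb than the 5′ HoxA and HoxD genes. Hoxc10, known as a hindlimb gene among the limb buds, was between 11.2 and 24.8 FPKM in limb (median 15.9), against 0, 0, 0, 0 and 0.0510 FPKM in MXP (log2 difference 4.09 ± 0.13, adjusted p = 3.91e-23). Hoxc11, another hindlimb gene, was between 2.43 and 10.1 FPKM in limb (median 6.77) and was listed at 0 in all 5 MXP libraries (adjusted p = 1.52e-15). Hoxc6 and Hoxc5 split the limb libraries: Hoxc6 had 7.28, 2.60, 2.51, 9.75, 8.80 and 2.24 FPKM in limb 1 to 6, with limb 1, 4 and 5 above limb 2, 3 and 6. Hoxc5 had 3.61, 1.02, 1.07, 3.20, 2.50 and 1.39 FPKM in the same order, and the same 3 libraries were highest. For Hoxc6 the MXP libraries had 0, 0, 0, 0 and 0.0338 FPKM (log2 difference 2.51 ± 0.20, adjusted p = 1.19e-11). Hoxc12 was the only Hox call that did not hold each time a library was left out, being lost when any one of limb 2 and limb 3 was left out (log2 differences from 0.88 to 0.93, adjusted p from 3.17e-06 to 1.04e-05).

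All 4 HoxB genes called were low in limb. Hoxb2 was between 1.34 and 6.70 FPKM in limb (median 2.95), against 0.377, 0, 0, 0.0658 and 0.119 FPKM in MXP (log2 difference 1.89 ± 0.20, adjusted p = 6.81e-09), Hoxb3 reached 4.70 FPKM, Hoxb7 4.21 FPKM and Hoxb9 3.03 FPKM in the highest limb library, and none exceeded 0.377 FPKM in MXP. The median log2 difference was 3.37 over the 10 tested HoxA genes, 1.55 over 5 HoxB, 1.61 over 9 HoxC and 5.21 over 8 HoxD genes, against 0.0017 over all tested genes. Where a tissue is at 0 these sizes depend on the 1 added before the logarithm: over the 32 tested Hox genes the median was 2.51 with 1 added and 5.43 with 0.1 added. The filter also selects for genes high in limb, so the counts describe the clusters and are no separate evidence.

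**Figure D2:**
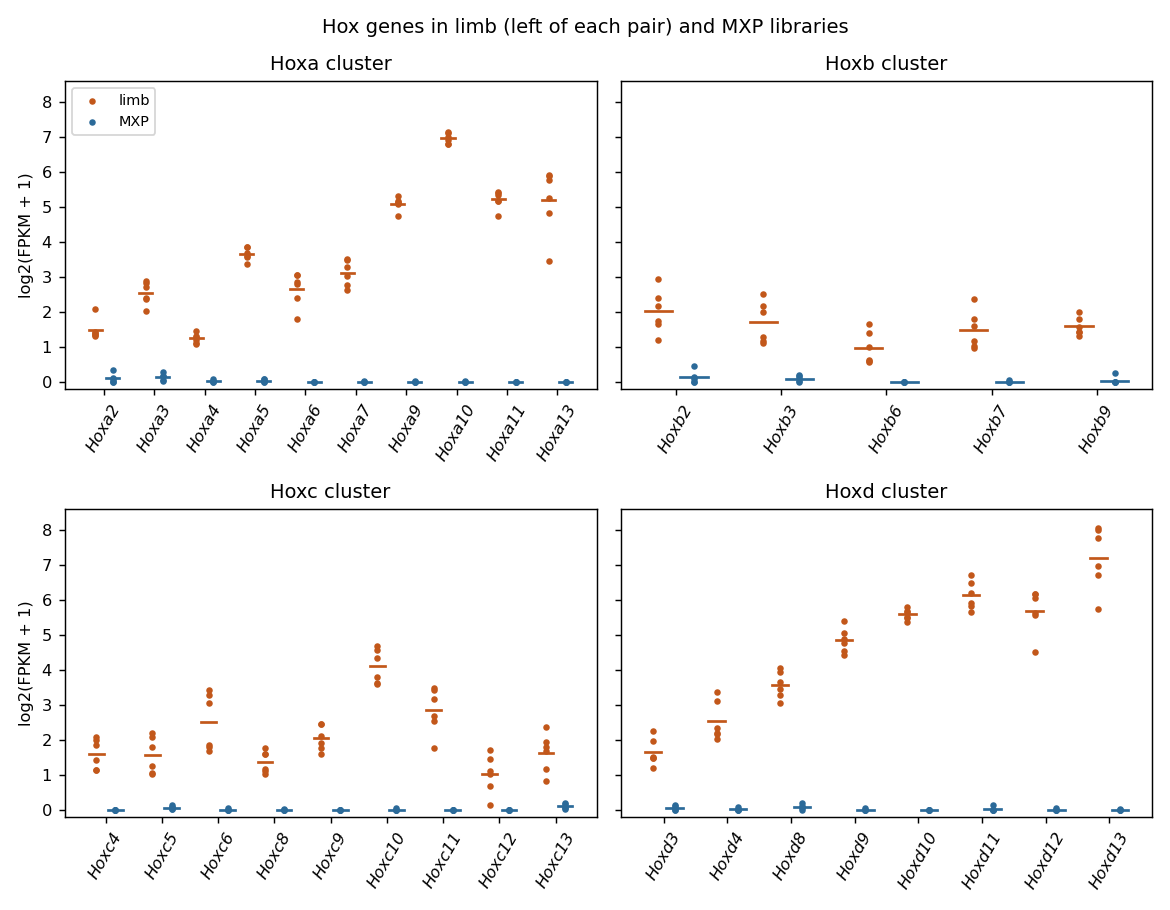
log2(FPKM + 1) of the 32 tested Hox genes of the 4 clusters, with each limb library an orange point left of each MXP library in blue and a bar at the group mean. In limb Hoxd13 and Hoxa10 are the highest genes of their clusters, whereas the MXP points lie at or near 0.

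The start regions of Hoxd13 and Hoxa13 are shown because these genes, the last of their clusters, were high in limb and at or close to 0 in MXP. Each window holds 250 bases before and 50 bases after the annotated start in RefSeq on GRCm38.p6, the build of the deposited tables, written 5′ to 3′ along the gene with every CG step in capitals. The Hoxd13 window lies at chr2:74667975-74668274, plus strand, and the Hoxa13 window at chr6:52260831-52261130, minus strand.
Hoxd13: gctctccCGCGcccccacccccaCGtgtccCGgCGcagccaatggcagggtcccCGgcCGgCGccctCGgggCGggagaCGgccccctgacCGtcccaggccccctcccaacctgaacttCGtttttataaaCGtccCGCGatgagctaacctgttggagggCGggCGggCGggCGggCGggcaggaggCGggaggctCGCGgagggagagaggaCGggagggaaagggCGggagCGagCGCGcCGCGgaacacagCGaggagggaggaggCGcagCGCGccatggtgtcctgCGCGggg
Hoxa13: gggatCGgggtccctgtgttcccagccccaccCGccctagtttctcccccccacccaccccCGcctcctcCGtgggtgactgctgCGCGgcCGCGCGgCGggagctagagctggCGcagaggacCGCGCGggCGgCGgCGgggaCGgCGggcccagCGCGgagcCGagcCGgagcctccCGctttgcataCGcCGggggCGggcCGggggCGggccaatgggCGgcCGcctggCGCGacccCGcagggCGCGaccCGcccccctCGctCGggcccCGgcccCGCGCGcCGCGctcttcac
They hold 37 and 45 CG steps, which is dense: the median was 17.5 over the 20 windows of called Hox genes that matched, 13 over the 159 windows of genes higher in limb, 13 over the 226 windows of genes lower in limb and 20 over the 12138 windows of tested genes. Windows matched 126 of the 201 genes called higher, 158 of the 264 called lower and 18 of the 31 called Hox genes. The letters TAATTA, a core that many homeodomain factors bind and that reads the same on both strands, were in 5.66% of windows of genes higher in limb, 3.98% of those lower, 2.59% of those of tested genes and 5.3% of all 32817 windows. Of the 20 windows of called Hox genes, 2 held these letters. Neither printed window holds the letters.

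The factors that set up the limb field and its type were also higher in limb for the most part. Of 20 listed genes, all tested, 12 were called higher in limb and 1 lower, with a median log2 difference of 2.13. Tbx5, which starts forelimb outgrowth, was between 12.8 and 24.5 FPKM in limb (median 18.4), against 0.0397, 0.148, 0.0977, 0 and 0.131 FPKM in MXP (log2 difference 4.16 ± 0.15, adjusted p = 2.96e-21). Tbx4, which serves the hindlimb, was between 6.70 and 28.6 FPKM in limb (median 22.7), against 0.964, 0.769, 0.809, 0.779 and 1.17 FPKM in MXP (log2 difference 3.44 ± 0.22, adjusted p = 3.55e-14). Every limb library thus held RNA of both the forelimb and the hindlimb factor. The median limb level was 18.4 FPKM for Tbx5 and 22.7 FPKM for Tbx4, and limb 4 was the lowest library for each. Pitx1, which acts before Tbx4 in the hindlimb and is also expressed in the mandible, was between 16.9 and 82.2 FPKM in limb (median 49.4), against 20.2, 7.44, 3.85, 9.12 and 5.38 FPKM in MXP (log2 difference 2.43 ± 0.38, adjusted p = 1.79e-05). Its groups overlapped, because MXP 1 exceeded limb 4.

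Hand2, which sets up the posterior limb margin where Sonic hedgehog is made, had 78.6, 96.9, 94.1, 32.9, 108 and 113 FPKM in limb 1 to 6, against 7.05, 0.410, 0, 0.0677 and 0.0827 FPKM in MXP (log2 difference 5.62 ± 0.32, adjusted p = 2.08e-15). A single MXP library, MXP 1, held most of the Hand2 signal on that side. Hand2 is also a gene of the mandibular arch, and its mean was 94.2 ± 11.8 FPKM in MNP (SD, n = 6). Pitx1 averaged 119.8 ± 21.3 FPKM in MNP (SD, n = 6), and MXP 1 was the highest MXP library for both genes. The part of any mandibular tissue in the MXP 1 pool was not tested. Without MXP 1 the log2 differences were 6.19, adjusted p = 1.12e-22 for Hand2 and 2.74, adjusted p = 2.83e-06 for Pitx1.

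Lhx9 and Lhx2, LIM homeodomain factors of distal limb mesenchyme, were both low in MXP, and Lhx9 was near 0 there. Lhx9 was between 51.0 and 71.6 FPKM in limb (median 67.8), against 0.0833, 0.209, 0.371, 0.144 and 0.253 FPKM in MXP (log2 difference 5.73 ± 0.30, adjusted p = 2.37e-16). Lhx2 was between 36.7 and 57.1 FPKM in limb (median 41.9), against 0.886, 0.409, 0.0268, 2.71 and 0.959 FPKM in MXP (log2 difference 4.61 ± 0.35, adjusted p = 4.25e-12). Lmx1b, which gives the limb its dorsal identity, was between 3.70 and 24.8 FPKM in limb (median 20.5), against 3.83, 3.42, 1.86, 2.20 and 2.78 FPKM in MXP (log2 difference 2.19 ± 0.32, adjusted p = 5.50e-06), and only limb 4 fell within the MXP range. Shox2, a gene of the proximal limb and the palate, was between 46.3 and 112 FPKM in limb (median 71.0), against 11.4, 24.5, 13.2, 12.03 and 23.1 FPKM in MXP (log2 difference 2.07 ± 0.33, adjusted p = 2.95e-05).

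The zinc finger families Sall and Zic followed. Sall1, mutated in Townes-Brocks syndrome with its thumb defects, was between 12.7 and 32.6 FPKM in limb (median 27.0), against 1.07, 1.01, 0.792, 1.70 and 1.46 FPKM in MXP (log2 difference 3.50 ± 0.21, adjusted p = 5.30e-15), and Sall3 reached 6.13 FPKM in limb and 0.267 in MXP (log2 difference 2.27 ± 0.23, adjusted p = 3.30e-09). Zic2 was between 13.02 and 34.8 FPKM in limb (median 28.7), against 0.402, 0.1296, 0.329, 0.623 and 0.217 FPKM in MXP (log2 difference 4.33 ± 0.33, adjusted p = 3.32e-12). Zic5, of the same family, was also called higher in limb, with a log2 difference of 2.46 (adjusted p = 1.01e-09). Of 14 tested members of the Sall, Zic and Tfap2 families 5 were higher in limb and 2 lower. The lower ones were AP-2 factors of ectoderm and neural crest. Tfap2c was between 3.15 and 8.99 FPKM in limb (median 5.71), against 18.2, 19.7, 16.8, 18.6 and 19.6 FPKM in MXP (log2 difference -1.61 ± 0.23, adjusted p = 2.84e-06). Tfap2a, named after its values were seen, had a fold at the threshold (log2 difference -1.01 ± 0.25, adjusted p = 0.0052) and lost its call when any one of limb 4, MXP 1 and MXP 2 was left out (log2 differences from -0.93 to -0.76, adjusted p from 0.0179 to 0.0241).

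Tbx18 and Tbx15, related T-box factors of proximal mesenchyme, separated the tissues less evenly. Tbx18 was between 17.2 and 31.6 FPKM in limb (median 22.2), against 1.21, 7.59, 4.13, 0.224 and 5.93 FPKM in MXP (log2 difference 2.64 ± 0.46, adjusted p = 0.000103). Tbx15 had 57.7, 48.8, 47.5, 37.1, 58.4 and 56.2 FPKM in limb 1 to 6, against 4.09, 32.8, 24.2, 2.96 and 30.0 FPKM in MXP (log2 difference 1.88 ± 0.51, adjusted p = 0.0132). The limb libraries were even, whereas MXP 1 and MXP 5 lay far below the other 3 MXP libraries. The Tbx15 call was lost when any one of MXP 1 and MXP 5 was left out (log2 differences from 1.42 to 1.51, adjusted p from 0.0652 to 0.0686), that is, without either of the libraries in which it was lowest. Meox2, a homeobox gene of limb muscle precursors and mesenchyme that also acts in the palate, was between 29.7 and 50.9 FPKM in limb (median 39.0), against 1.17, 1.25, 0.230, 0.695 and 1.69 FPKM in MXP (log2 difference 4.37 ± 0.23, adjusted p = 2.37e-16). It stood far above MXP in every limb library, and its relative Meox1 was called too (log2 difference 1.41 ± 0.22, adjusted p = 2.07e-05).

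The apical ectodermal ridge is the strip of ectoderm at the limb tip that keeps outgrowth going. Of its 19 listed genes 18 were tested, and 2 were called higher in limb and 2 lower, with a median of 0.23. Fgf8, the main Fgf of the ridge and also a signal of facial ectoderm, had 42.6, 26.7, 19.8, 57.4, 47.1 and 17.8 FPKM in limb 1 to 6, against 23.4, 6.54, 6.23, 22.6 and 9.08 FPKM in MXP (log2 difference 1.40 ± 0.41, adjusted p = 0.0237). The groups overlapped, and the call was lost when any one of limb 1, limb 4, limb 5, MXP 2, MXP 3 and MXP 6 was left out (log2 differences from 1.20 to 1.32, adjusted p from 0.0521 to 0.0974). Sp8, a zinc finger factor needed for the ridge, gave a wider separation, at between 2.82 and 4.88 FPKM in limb (median 4.22), against 0.367, 0.196, 0.0432, 0.487 and 0.0755 FPKM in MXP (log2 difference 2.00 ± 0.20, adjusted p = 2.37e-09). Trp63 (p63), a factor of all surface ectoderm, was called lower in limb, at between 6.42 and 13.3 FPKM in limb (median 8.73), against 26.3, 25.7, 18.0, 14.4 and 14.7 FPKM in MXP (log2 difference -1.02 ± 0.21, adjusted p = 0.000876). Its fold was close to 2, and the call was lost when any one of limb 4, limb 5, limb 6, MXP 1 and MXP 2 was left out (log2 differences from -0.99 to -0.91, adjusted p from 0.00261 to 0.006).

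Fgf signals switch on their own feedback targets, and some of these were higher in limb. Of 17 genes of Fgf receptors and targets 4 were called higher and 1 lower, with a median of 0.47. The 4 were Etv4, an Ets factor induced by Fgf, Spry2 and Spry4, which restrain receptor signalling, and Dusp6, a phosphatase that removes activating phosphates from Erk. Etv4 was between 21.4 and 32.6 FPKM in limb (median 24.6), against 14.6, 9.33, 8.22, 17.8 and 9.53 FPKM in MXP (log2 difference 1.11 ± 0.25, adjusted p = 0.00185). Spry2, Spry4 and Dusp6 had log2 differences of 1.03 (adjusted p = 0.00124), 1.00 (adjusted p = 1.47e-05) and 1.04 (adjusted p = 0.0094). These folds were at the threshold. The Spry2 call was lost when any one of limb 2, limb 3, limb 6, MXP 3 and MXP 6 was left out (log2 differences from 0.94 to 0.98, adjusted p from 0.0042 to 0.00744), the Spry4 call when any one of limb 1, limb 2, limb 5, limb 6, MXP 1 and MXP 3 was left out (log2 differences from 0.90 to 0.99, adjusted p from 5.18e-05 to 0.000156) and the Dusp6 call when any one of limb 4, limb 5, MXP 2 and MXP 3 was left out (log2 differences from 0.87 to 0.97, adjusted p from 0.0294 to 0.0522). Fgfr2, the receptor of which one form serves the ectoderm, was lower in limb, at between 10.3 and 18.4 FPKM in limb (median 15.4), against 33.5, 46.1, 31.7, 20.8 and 34.97 FPKM in MXP (log2 difference -1.09 ± 0.19, adjusted p = 0.000113), and was not called when any one of limb 4 and MXP 2 was left out (log2 differences from -0.99 to -0.96, adjusted p from 0.000507 to 0.00108).

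Among the Fgf ligands, Fgf18, a ligand of cartilage and bone growth, was between 0.873 and 11.6 FPKM in limb (median 6.93), against 1.19, 1.09, 0.482, 0.570 and 0.422 FPKM in MXP (log2 difference 1.95 ± 0.34, adjusted p = 8.32e-05), with limb 4 the lowest limb library and within the MXP range. Fgf10, the mesenchymal ligand that sustains the ridge, was not called, at between 6.51 and 8.99 FPKM in limb (median 8.01), against 3.58, 7.84, 5.67, 5.43 and 6.13 FPKM in MXP (log2 difference 0.40, adjusted p = 0.211). Its groups overlapped.

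Among genes of Bmp signalling, antagonists were called in both directions. Grem1, the antagonist that links the posterior margin to the ridge, was between 11.1 and 25.2 FPKM in limb (median 15.8), against 1.13, 3.11, 2.77, 1.40 and 2.55 FPKM in MXP (log2 difference 2.47 ± 0.20, adjusted p = 3.08e-11). Chrdl1, a chordin-like antagonist, was between 4.41 and 10.02 FPKM in limb (median 6.50), against 0.566, 0.385, 0.201, 0.673 and 0.271 FPKM in MXP (log2 difference 2.45 ± 0.17, adjusted p = 1.78e-13). Fst (follistatin), which binds activin and Bmp ligands, went the other way, at between 0.746 and 4.32 FPKM in limb (median 2.49), against 4.97, 13.4, 8.45, 4.23 and 8.64 FPKM in MXP (log2 difference -1.31 ± 0.33, adjusted p = 0.0066). Gdf5, the ligand that marks forming joints, was the fourth called gene of the 23 tested, at between 1.17 and 9.74 FPKM in limb (median 3.16), against 0.422, 0.744, 0.385, 0.798 and 0.550 FPKM in MXP (log2 difference 1.48 ± 0.24, adjusted p = 2.66e-05). Bmp4 was between 26.5 and 35.4 FPKM in limb (median 31.1), against 20.6, 24.7, 28.4, 17.1 and 26.0 FPKM in MXP, and Bmp7 was between 19.9 and 27.4 FPKM in limb (median 26.0), against 24.6, 28.8, 27.9, 22.4 and 29.3 FPKM in MXP. Neither ligand was called, with log2 differences of 0.40 (adjusted p = 0.478) and -0.09 (adjusted p = 0.89).

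Hedgehog signalling, which patterns the digits from the posterior margin of the limb and acts in the facial midline, had 0 calls among 18 tested genes, with a median of -0.07. With 3.34% of all tested genes called, a count of 0 in a list of this size is not read as a result about the pathway. At an unadjusted p under 0.05 limma marked 5 of the 18. The share of all tested genes at that cutoff is not given here, so nothing is read from this count. Shh was between 1.68 and 7.57 FPKM in limb (median 4.71), against 1.499, 2.28, 0.877, 2.96 and 1.31 FPKM in MXP (log2 difference 0.91, adjusted p = 0.163). Its target Ptch1 was between 15.1 and 34.4 FPKM in limb (median 31.5), against 24.1, 42.7, 18.1, 18.9 and 23.6 FPKM in MXP, and its target Gli1 was between 7.87 and 24.2 FPKM in limb (median 19.6), against 12.6, 41.7, 20.1, 13.8 and 28.7 FPKM in MXP. The limb and MXP ranges of all 3 overlapped. Smo, the transducer, and Gas1, a co-receptor, had log2 differences of -0.08 (adjusted p = 0.896) and -0.17 (adjusted p = 0.816).

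Many factors of the jaw and palate were lower in limb. Of 30 listed facial prominence and palate factors, all tested, 16 were called lower in limb and 2 higher, with a median log2 difference of -1.05. The 2 higher members were Meox2, given above, and Sox9. Barx1, a homeobox gene of the proximal jaw mesenchyme and molar field, was between 0.251 and 0.767 FPKM in limb (median 0.373), against 112, 75.5, 62.1, 174 and 128 FPKM in MXP (log2 difference -6.21 ± 0.34, adjusted p = 5.06e-16). Lhx8 and Lhx6, LIM homeodomain factors of the oral side of the jaw mesenchyme, were between 0.0241 and 0.702 FPKM in limb (median 0.0361), against 53.1, 56.6, 56.2, 77.2 and 76.6 FPKM in MXP (log2 difference -5.83 ± 0.45, adjusted p = 4.55e-12), and between 0.210 and 0.913 FPKM in limb (median 0.308), against 26.2, 36.2, 28.8, 39.5 and 40.4 FPKM in MXP (log2 difference -4.66 ± 0.39, adjusted p = 3.54e-11). Every limb library of these 3 genes was below 1 FPKM.

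Foxl2, a forkhead factor best known from the ovary and the eyelid, was between 0.0411 and 0.155 FPKM in limb (median 0.0925), against 21.3, 35.6, 17.5, 37.4 and 33.9 FPKM in MXP (log2 difference -4.72 ± 0.31, adjusted p = 1.18e-13). Pou3f3, a POU factor that patterns the upper jaw and cheek in mice, was between 0.144 and 1.41 FPKM in limb (median 0.473), against 25.3, 43.5, 41.6, 39.8 and 59.5 FPKM in MXP (log2 difference -4.77 ± 0.38, adjusted p = 1.40e-11). Alx1, of the aristaless-like family that shapes the upper face, was between 0.829 and 2.47 FPKM in limb (median 1.03), against 28.7, 36.1, 32.2, 31.4 and 26.6 FPKM in MXP (log2 difference -3.87 ± 0.48, adjusted p = 2.62e-07). Alx4, its relative, is also a limb gene of the anterior margin and had 12.2, 3.94, 3.80, 8.16, 12.7 and 6.58 FPKM in limb 1 to 6, against 27.6, 45.5, 34.9, 34.4 and 41.0 FPKM in MXP (log2 difference -2.19 ± 0.41, adjusted p = 0.000271).

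Lhx8, Foxl2 and Pou3f3 each had a neighbour with the same pattern. AI606473 starts 260 bases from Lhx8 and was between 0 and 0.153 FPKM in limb (median 0), against 32.8, 37.4, 44.4, 41.0 and 47.9 FPKM in MXP (log2 difference -5.33 ± 0.34, adjusted p = 4.58e-14). Foxl2os lies 296 bases from Foxl2 and was between 0.0129 and 0.0695 FPKM in limb (median 0.0289), against 10.7, 16.5, 13.6, 12.6 and 19.03 FPKM in MXP (log2 difference -3.88 ± 0.20, adjusted p = 1.40e-16). The transcript 2610017I09Rik lies 2320 bases from Pou3f3 and was between 0.161 and 3.46 FPKM in limb (median 0.791), against 36.7, 56.9, 72.6, 34.5 and 84.7 FPKM in MXP (log2 difference -4.85 ± 0.32, adjusted p = 7.67e-14). None of the pairs shares bases in the deposited gene models.

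**Figure D3:**
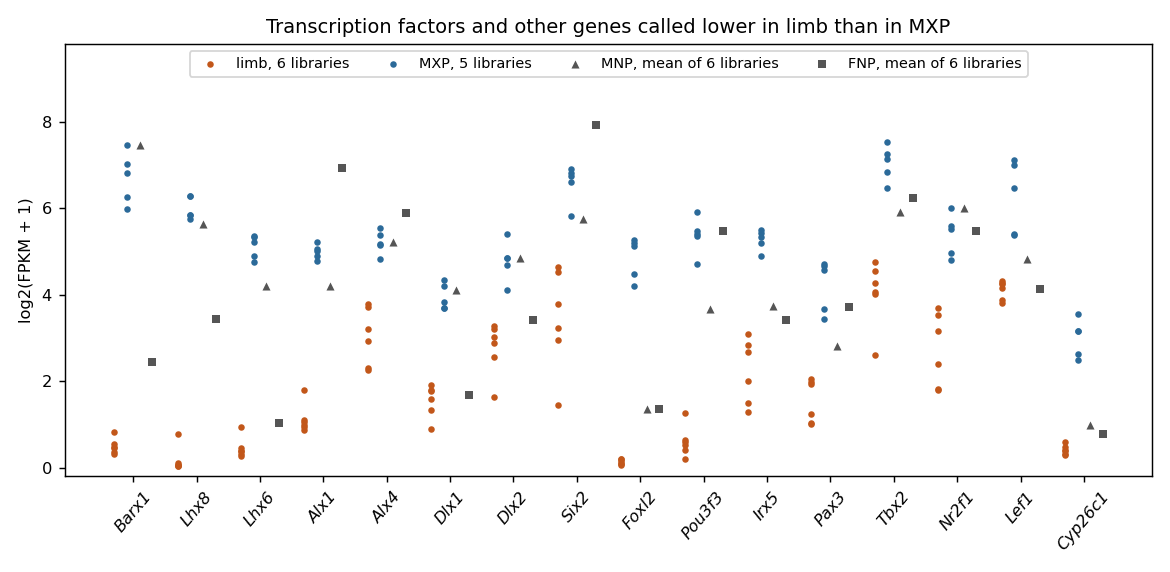
log2(FPKM + 1) of 16 genes called lower in limb, with the 6 limb libraries (orange) left of the 5 MXP libraries (blue) and the means of 6 MNP libraries (triangles) and 6 FNP libraries (squares) at the right of each gene. Barx1, Lhx8, Lhx6 and Foxl2 lie below 1 on this axis in every limb library, while Dlx2, Six2, Tbx2 and Lef1 were present in limb at lower levels than in MXP.

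The start regions of Barx1, Lhx8 and Foxl2 are printed because these genes were nearly off in limb and lie beside partners with the same pattern, apart from Barx1. CG steps are again in capitals. The windows lie at chr13:48662786-48663085, plus strand for Barx1, at chr3:154330511-154330810, minus strand for Lhx8 and at chr9:98955357-98955656, plus strand for Foxl2.
Barx1: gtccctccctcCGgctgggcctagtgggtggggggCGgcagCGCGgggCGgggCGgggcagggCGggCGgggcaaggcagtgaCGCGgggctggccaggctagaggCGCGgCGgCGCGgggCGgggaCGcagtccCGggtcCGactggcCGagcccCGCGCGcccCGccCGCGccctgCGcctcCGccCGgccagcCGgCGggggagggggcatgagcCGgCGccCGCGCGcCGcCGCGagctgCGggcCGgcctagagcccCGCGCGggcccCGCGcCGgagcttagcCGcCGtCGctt
Lhx8: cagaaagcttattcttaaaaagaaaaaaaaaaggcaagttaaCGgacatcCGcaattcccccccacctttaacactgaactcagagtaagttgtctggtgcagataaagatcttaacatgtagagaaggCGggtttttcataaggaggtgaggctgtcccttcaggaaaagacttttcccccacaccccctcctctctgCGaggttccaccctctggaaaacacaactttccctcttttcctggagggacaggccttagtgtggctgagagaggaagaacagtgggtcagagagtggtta
Foxl2: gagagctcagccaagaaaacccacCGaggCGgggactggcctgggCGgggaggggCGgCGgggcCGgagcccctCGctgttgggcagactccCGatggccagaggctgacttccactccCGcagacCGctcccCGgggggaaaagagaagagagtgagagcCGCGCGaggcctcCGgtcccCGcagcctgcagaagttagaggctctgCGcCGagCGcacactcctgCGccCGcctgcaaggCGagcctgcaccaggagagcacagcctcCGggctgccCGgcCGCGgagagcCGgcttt
Barx1 holds 50 CG steps, Foxl2 27 and Lhx8 4, so genes with nearly the same pattern had windows at both ends of the CG range. The Lhx8 window spans nearly all of the gap to AI606473. The letters TAATTA are in none of the 3. The window of Hand2, which is not printed, does hold them.

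Dlx genes give the first arch its upper and lower identities, Dlx1 and Dlx2 in both jaws and Dlx5 and Dlx6 in the lower one. Of 8 tested members 3 were called lower in limb and 0 higher. Dlx1 was between 0.852 and 2.78 FPKM in limb (median 2.20), against 13.1, 11.8, 11.9, 19.4 and 17.4 FPKM in MXP (log2 difference -2.40 ± 0.49, adjusted p = 0.000775). Dlx2 was between 2.08 and 8.67 FPKM in limb (median 6.79), against 27.6, 24.6, 16.2, 41.4 and 27.6 FPKM in MXP (log2 difference -2.01 ± 0.53, adjusted p = 0.0106). Dlx1as, the third, overlaps Dlx1 by 3344 bases, so its reads cannot be separated from those of Dlx1 without strand (log2 difference -2.33 ± 0.54, adjusted p = 0.003). Dlx5, which the limb ridge also expresses, was not called, at between 4.41 and 11.7 FPKM in limb (median 7.84), against 15.2, 13.6, 10.7, 17.5 and 15.5 FPKM in MXP (log2 difference -0.85, adjusted p = 0.198), and its groups overlapped at limb 6 and MXP 3.

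The Irx family, homeobox genes carried as 2 clusters, had 4 of 6 members called lower in limb and 0 higher. Irx3 and Irx5 are limb genes of the proximal and anterior bud. Irx3 had 15.5, 2.42, 2.28, 11.1, 16.6 and 5.24 FPKM in limb 1 to 6, against 44.4, 63.7, 52.7, 64.99 and 65.4 FPKM in MXP (log2 difference -2.89 ± 0.42, adjusted p = 5.50e-06). Irx5 had 6.16, 1.44, 1.80, 5.41, 7.57 and 2.99 FPKM in limb 1 to 6, against 28.7, 42.2, 35.9, 39.3 and 44.1 FPKM in MXP (log2 difference -3.04 ± 0.37, adjusted p = 2.26e-07). Limb 1, 4 and 5 were the highest limb libraries for each, and both stayed below every MXP library. Irx4 and Irx6 were low in both tissues, with log2 differences of -1.14 (adjusted p = 1.35e-07) and -1.42 (adjusted p = 1.86e-10).

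Forkhead factors were called in 1 direction: 8 of 17 tested members were lower in limb and 0 higher, with a median of -0.96. Besides Foxl2 these included Foxf1 and Foxf2, which respond to Hedgehog signals and act in palate growth. Foxf1 was between 0 and 0.155 FPKM in limb (median 0.0649), against 4.25, 10.4, 4.01, 4.45 and 7.46 FPKM in MXP (log2 difference -2.65 ± 0.32, adjusted p = 1.32e-07). Foxf2 was between 0.0825 and 0.783 FPKM in limb (median 0.566), against 7.07, 9.37, 3.23, 8.34 and 5.76 FPKM in MXP (log2 difference -2.31 ± 0.34, adjusted p = 7.27e-06). Foxp2, Foxd3 and Foxd1 were lower as well, with log2 differences of -1.79, -1.80 and -1.63 (adjusted p = 8.80e-10, 4.62e-10 and 0.00158). Foxp4, the member of highest level that was not called, was between 9.24 and 33.0 FPKM in limb (median 24.8), against 32.6, 27.2, 14.7, 39.9 and 25.1 FPKM in MXP (log2 difference -0.31, adjusted p = 0.687).

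Six2, a homeobox gene that keeps progenitors undifferentiated in the kidney, had 8.33, 12.9, 21.9, 1.75, 6.73 and 24.1 FPKM in limb 1 to 6, against 55.6, 119, 112, 96.1 and 106 FPKM in MXP (log2 difference -3.15 ± 0.63, adjusted p = 0.000608). Limb varied widely, from the low of limb 4 to the highs of limb 3 and 6. Eya1, the phosphatase partner of Six2 and its relatives, was between 2.66 and 4.39 FPKM in limb (median 3.59), against 16.1, 20.6, 17.9, 23.9 and 20.6 FPKM in MXP (log2 difference -2.19 ± 0.20, adjusted p = 5.10e-10). Nr2f1 (COUP-TFI), a nuclear receptor of cranial crest, was between 2.46 and 11.8 FPKM in limb (median 6.10), against 47.0, 30.1, 26.9, 63.0 and 44.6 FPKM in MXP (log2 difference -2.64 ± 0.32, adjusted p = 2.04e-07).

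The T-box family was called in both directions, 4 of 11 members higher in limb and 3 lower. Against Tbx4, Tbx5, Tbx15 and Tbx18 stood Tbx2 and Tbx3, repressors with roles at the limb margins and in the palate, and Tbx22, the gene of X-linked cleft palate. Tbx2 was between 5.12 and 26.0 FPKM in limb (median 17.1), against 88.1, 139, 113, 153 and 184 FPKM in MXP (log2 difference -2.998 ± 0.40, adjusted p = 8.73e-07). Tbx3 was between 6.84 and 15.2 FPKM in limb (median 10.1), against 26.2, 45.7, 29.6, 45.5 and 46.1 FPKM in MXP (log2 difference -1.81 ± 0.26, adjusted p = 4.14e-06). Both were expressed in limb and higher in MXP with no overlap. Tbx22 was between 0.0126 and 1.68 FPKM in limb (median 0.564), against 3.07, 2.61, 1.31, 3.80 and 1.51 FPKM in MXP (log2 difference -1.08 ± 0.25, adjusted p = 0.00323), and its call was lost when any one of limb 1, limb 4, limb 5 and MXP 5 was left out (log2 differences from -0.99 to -0.95, adjusted p from 0.0113 to 0.0153).

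Pax3, a factor of neural crest and of muscle precursors, was between 1.00 and 3.16 FPKM in limb (median 2.09), against 9.77, 24.3, 22.7, 11.8 and 25.1 FPKM in MXP (log2 difference -2.67 ± 0.39, adjusted p = 4.74e-06). Pax1 had 7.78, 0.351, 0.0942, 7.08, 6.38 and 0.726 FPKM in limb 1 to 6, against 7.39, 53.6, 37.3, 5.70 and 51.6 FPKM in MXP (log2 difference -2.78 ± 0.60, adjusted p = 0.00137). Both groups split: limb 1, 4 and 5 lay at the level of MXP 1 and 5, with limb 2, 3 and 6 far below and MXP 2, 3 and 6 far above. Pax9, a palate and tooth gene, was not called, at between 0.268 and 5.95 FPKM in limb (median 1.87), against 3.73, 6.05, 3.43, 5.03 and 7.66 FPKM in MXP (log2 difference -0.97, adjusted p = 0.119). Meis2 and Meis3, cofactors of Hox and other homeodomain proteins, were lower in limb, with Meis2 at between 5.65 and 20.0 FPKM in limb (median 9.70), against 40.8, 54.5, 39.1, 38.6 and 42.5 FPKM in MXP (log2 difference -1.999 ± 0.31, adjusted p = 1.81e-05) and Meis3 at between 1.16 and 2.54 FPKM in limb (median 1.65), against 12.1, 11.7, 10.1, 10.4 and 13.7 FPKM in MXP (log2 difference -2.20 ± 0.14, adjusted p = 3.33e-14).

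The general mesenchymal factors Prrx2, Twist1 and Msx1 were not called. Prrx2 was between 101 and 122 FPKM in limb (median 109), against 82.7, 73.9, 96.0, 134 and 106 FPKM in MXP (log2 difference 0.19, adjusted p = 0.864). Twist1, a bHLH factor of both mesenchymes, was between 71.7 and 143 FPKM in limb (median 111), against 187, 308, 282, 312 and 384 FPKM in MXP, and Msx1 was between 23.2 and 37.7 FPKM in limb (median 27.4), against 44.0, 73.3, 45.6, 65.7 and 71.7 FPKM in MXP. Limb libraries lay below MXP libraries for both, with log2 differences of -1.37 (adjusted p = 0.117) and -1.03 (adjusted p = 0.0746), and neither passed the test. In a fit of the 11 limb and MXP libraries alone both were called, with log2 differences of -1.37, adjusted p = 0.000612 for Twist1 and -1.03, adjusted p = 0.0013 for Msx1.

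Wnt ligands and modulators were called in both directions. Of 16 ligands 4 were called lower and 1 higher, with a median of -0.48, and of 38 receptors, modulators and targets 8 were lower and 2 higher, with a median of -0.30. Wnt9b, an ectodermal ligand needed for fusion of the upper lip, was between 0.439 and 1.85 FPKM in limb (median 1.26), against 14.6, 15.1, 13.4, 7.05 and 10.3 FPKM in MXP (log2 difference -2.54 ± 0.20, adjusted p = 8.85e-12). Wnt7a, the ligand of dorsal limb ectoderm, was the one called higher, at between 2.50 and 4.82 FPKM in limb (median 3.62), against 0.532, 1.71, 1.30, 0.394 and 1.02 FPKM in MXP (log2 difference 1.23 ± 0.19, adjusted p = 1.19e-05). Dkk4, a secreted Wnt inhibitor of placodes, was between 0 and 0.199 FPKM in limb (median 0), against 5.09, 6.99, 4.44, 3.16 and 5.78 FPKM in MXP (log2 difference -2.52 ± 0.17, adjusted p = 9.21e-14).

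Lef1, the nuclear effector of Wnt signals, had 17.9, 13.8, 18.8, 13.1, 16.7 and 18.2 FPKM in limb 1 to 6, against 40.5, 137, 87.4, 41.5 and 126 FPKM in MXP (log2 difference -2.16 ± 0.26, adjusted p = 1.25e-07). Limb was even, and MXP 1 and 5 lay below the other MXP libraries. Axin2, a general target, was between 8.06 and 18.4 FPKM in limb (median 17.1), against 31.2, 39.9, 33.1, 36.3 and 45.2 FPKM in MXP (log2 difference -1.24 ± 0.20, adjusted p = 3.75e-05). R-spondins, which raise receptor levels, went both ways. Rspo1 and Rspo2 were lower in limb (log2 difference -1.86 ± 0.26, adjusted p = 2.21e-06 for Rspo1, and log2 difference -1.25 ± 0.24, adjusted p = 0.000289 for Rspo2), and Rspo4 was higher. For Rspo4 limb 1 to 6 had 4.20, 1.40, 1.13, 7.59, 6.11 and 1.83 FPKM, against 0.390, 0.335, 0.234, 0.347 and 0.201 FPKM in MXP (log2 difference 1.65 ± 0.21, adjusted p = 5.89e-07).

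Retinoic acid comes from aldehyde dehydrogenases and is cleared by Cyp26 enzymes. Of 18 tested genes of its synthesis, breakdown and response, 2 were called higher in limb and 4 lower. The clearing enzymes parted: Cyp26c1 was between 0.224 and 0.499 FPKM in limb (median 0.323), against 10.7, 7.95, 4.62, 7.95 and 5.20 FPKM in MXP (log2 difference -2.59 ± 0.16, adjusted p = 2.76e-14), whereas Cyp26b1 was between 21.0 and 65.7 FPKM in limb (median 52.0), against 8.62, 35.3, 21.0, 8.20 and 34.9 FPKM in MXP (log2 difference 1.31 ± 0.42, adjusted p = 0.0431). The Cyp26b1 groups overlapped at limb 4, and its call was lost when any one of limb 1, limb 2, limb 3, limb 5, limb 6, MXP 1, MXP 3 and MXP 5 was left out (log2 differences from 1.05 to 1.36, adjusted p from 0.0611 to 0.149). Aldh1a3, a synthesizing enzyme, was between 0.0426 and 0.357 FPKM in limb (median 0.1295), against 3.56, 7.64, 5.58, 2.26 and 2.81 FPKM in MXP (log2 difference -2.11 ± 0.35, adjusted p = 3.46e-05). Rarb, a receptor that retinoic acid itself induces, was between 1.11 and 6.96 FPKM in limb (median 2.25), against 17.5, 13.9, 16.6, 15.02 and 17.0 FPKM in MXP (log2 difference -2.21 ± 0.34, adjusted p = 1.32e-05).

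Igf2, an imprinted growth factor, was between 435 and 995 FPKM in limb (median 828), against 292, 282, 171, 188 and 203 FPKM in MXP (log2 difference 1.78 ± 0.43, adjusted p = 0.00481). H19, the imprinted RNA next to it, was between 5.63 and 16.7 FPKM in limb (median 10.6), against 3.79, 3.20, 2.31, 2.88 and 5.01 FPKM in MXP (log2 difference 1.34 ± 0.25, adjusted p = 0.000272). A second symbol in the tables, AK145379 (chr7:142575531-142578114), covers nearly the same stretch as H19 (chr7:142575532-142578146) and was between 1843 and 2484 FPKM in limb (median 2130.0), against 897, 757, 796, 626 and 722 FPKM in MXP (log2 difference 1.501 ± 0.35, adjusted p = 0.00305). How reads were split between these symbols is not stated, so the level under H19 is not that of the locus, and AK145379 was named after its values were seen. Igf1 went the other way, at between 5.96 and 9.02 FPKM in limb (median 8.18), against 26.6, 37.3, 37.5, 28.6 and 27.9 FPKM in MXP (log2 difference -1.88 ± 0.36, adjusted p = 0.000287). The limb and MXP libraries did not overlap for any of these 4. Cdkn1c, another imprinted growth gene, was not called, at between 226 and 376 FPKM in limb (median 274), against 213, 219.5, 184, 214 and 206 FPKM in MXP (log2 difference 0.40, adjusted p = 0.246).

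Among 23 tested chondrogenic and joint genes 5 were called higher in limb and 2 lower. Sox9, the master factor of cartilage, was between 14.5 and 53.0 FPKM in limb (median 27.0), against 11.8, 9.17, 3.40, 18.6 and 5.04 FPKM in MXP (log2 difference 1.67 ± 0.37, adjusted p = 0.00166), and its lowest limb library, limb 4, fell within the MXP range. Col9a1, a cartilage collagen chain, was between 16.8 and 49.9 FPKM in limb (median 27.4), against 11.4, 5.15, 4.82, 11.4 and 4.73 FPKM in MXP (log2 difference 1.93 ± 0.51, adjusted p = 0.0101). Col2a1, the main cartilage collagen, was not called, at between 20.1 and 110.2 FPKM in limb (median 41.4), against 49.2, 28.3, 15.2, 60.3 and 42.3 FPKM in MXP (log2 difference 0.22, adjusted p = 0.809). Runx2, the master factor of bone, was lower in limb, with 1.17, 0.799, 1.06, 0.937, 1.33 and 1.70 FPKM in limb 1 to 6, against 5.96, 25.4, 13.97, 5.81 and 22.4 FPKM in MXP (log2 difference -2.64 ± 0.45, adjusted p = 5.57e-05).

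Scx, the factor of tendon progenitors, was between 27.8 and 46.9 FPKM in limb (median 38.3), against 8.91, 5.02, 1.81, 11.8 and 3.40 FPKM in MXP (log2 difference 2.60 ± 0.26, adjusted p = 3.74e-09). Collagen VI chains were lower in limb. Col6a1 was between 1.43 and 6.59 FPKM in limb (median 2.27), against 7.68, 32.3, 18.4, 10.2 and 35.2 FPKM in MXP (log2 difference -2.36 ± 0.46, adjusted p = 0.000459), and Col6a2 and Col6a3 had log2 differences of -2.30 (adjusted p = 0.00106) and -1.53 (adjusted p = 0.00265). Of 24 tested collagens 4 were called lower and 0 higher, with a median of -0.54. Postn (periostin), a matrix protein of mesenchyme that is also listed among the glia markers, was between 1.36 and 5.05 FPKM in limb (median 2.72), against 34.2, 63.6, 75.0, 27.0 and 79.4 FPKM in MXP (log2 difference -3.80 ± 0.47, adjusted p = 2.60e-07).

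Muscle precursors migrate into the limb from the somites, and Lbx1 and Met are genes of these cells. The level of Met is not reported here. Lbx1 was between 1.52 and 8.85 FPKM in limb (median 4.78), against 0.0646, 0, 0.0770, 0.0672 and 0 FPKM in MXP (log2 difference 2.27 ± 0.21, adjusted p = 7.44e-10). Myf5, the first muscle factor of the somite, was between 2.20 and 4.00 FPKM in limb (median 2.47), against 0.147, 0, 0, 0.242 and 0.189 FPKM in MXP (log2 difference 1.77 ± 0.16, adjusted p = 1.49e-10). Myod1, which commits cells to muscle, had 6.31, 3.98, 5.18, 2.72, 6.12 and 13.7 FPKM in limb 1 to 6, against 1.92, 0.0854, 0.0662, 1.03 and 1.35 FPKM in MXP (log2 difference 1.93 ± 0.27, adjusted p = 1.88e-06). Limb 6 was highest for Myod1 and Myog, and limb 4 was lowest for Myog (log2 difference 1.78 ± 0.42, adjusted p = 0.00363). Of 17 tested muscle progenitor markers 7 were higher in limb and 2 lower. Pax3, given above and also a gene of neural crest, was among those lower. The markers summed to 45.2 to 150.5 FPKM in limb (median 72.2), against 71.3 to 106 FPKM in MXP (median 95.7).

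Markers of some other cell types differed between the tissues as well. Schwann and crest glia markers summed to 8.26 to 21.3 FPKM in limb (median 15.2), against 66.0 to 127 FPKM in MXP (median 112), with 6 of 11 tested members called lower in limb and 0 higher. Postn, given above as a matrix protein of mesenchyme, is in this list and made up a large part of the MXP sums. It had 34.25, 63.62, 75.03, 27.0 and 79.38 FPKM in MXP, where the list summed to 79.97, 111.7, 112.6, 65.98 and 126.8 FPKM. The difference in these sums is therefore not read as a measure of glia. Sox10, the defining factor of these glia, was between 0.0727 and 2.87 FPKM in limb (median 0.412), against 5.42, 11.6, 6.41, 6.25 and 10.8 FPKM in MXP (log2 difference -2.48 ± 0.33, adjusted p = 8.29e-07). Neuron markers summed to 41.2 to 70.5 FPKM in limb (median 47.0), against 107 to 157 FPKM in MXP (median 135), with 5 of 20 called lower and 1 higher. Over the settings tried 1 to 10 neuron markers were called lower. Tubb3, the neuronal tubulin, was between 6.47 and 17.3 FPKM in limb (median 8.26), against 40.9, 48.5, 48.4, 24.2 and 48.0 FPKM in MXP (log2 difference -2.08 ± 0.28, adjusted p = 1.52e-06). In single cells of the mandibular prominence the authors found Tubb3 nearly confined to mesenchymal as against epithelial clusters. Its level in MXP is therefore not read as a measure of neurons. Nefl, a neurofilament, was between 0.273 and 0.719 FPKM in limb (median 0.609), against 11.3, 1.30, 1.61, 3.89 and 1.92 FPKM in MXP (log2 difference -1.40 ± 0.33, adjusted p = 0.00363), with MXP 1 the highest library. Its call was lost without MXP 1 (log2 difference -0.99, adjusted p = 0.0231). Dcx, a protein of migrating neurons, was the member called higher in limb, at between 3.79 and 6.38 FPKM in limb (median 4.56), against 2.01, 1.55, 0.748, 1.10 and 0.677 FPKM in MXP (log2 difference 1.42 ± 0.34, adjusted p = 0.00452).

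Surface ectoderm markers summed to 160.4 to 278 FPKM in limb (median 209), against 219.6 to 409.9 FPKM in MXP (median 327), with ranges that overlapped and 3 of 20 members called lower in limb. Sensory ganglion markers summed to 18.4 to 36.4 FPKM in limb (median 25.8), against 46.8 to 75.9 FPKM in MXP (median 67.3). The part that nerves, ganglion cells or ectoderm in the pools had in the genes lower in limb was not tested. Endothelial, macrophage and erythroid markers had 0 calls of 18, 13 and 12 tested members in limma, with 3, 0 and 0 at an unadjusted p under 0.05. Their sums overlapped between the tissues. With 3.34% of all tested genes called, counts of 0 in lists of this size are not read as a result about these cell types. Nor are the counts at the unadjusted cutoff, for which the share of all tested genes is not given here. Limb mesenchyme markers, 10 Hox and T-box genes, summed to 349.5 to 739.8 FPKM in limb (median 653), against 0.779 to 1.48 FPKM in MXP (median 0.973). The 12 facial mesenchyme markers summed to 30.1 to 65.6 FPKM in limb (median 59.1), against 394 to 574 FPKM in MXP (median 450.0), so the 2 sets of libraries did not overlap in either sum.

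**Figure D4:**
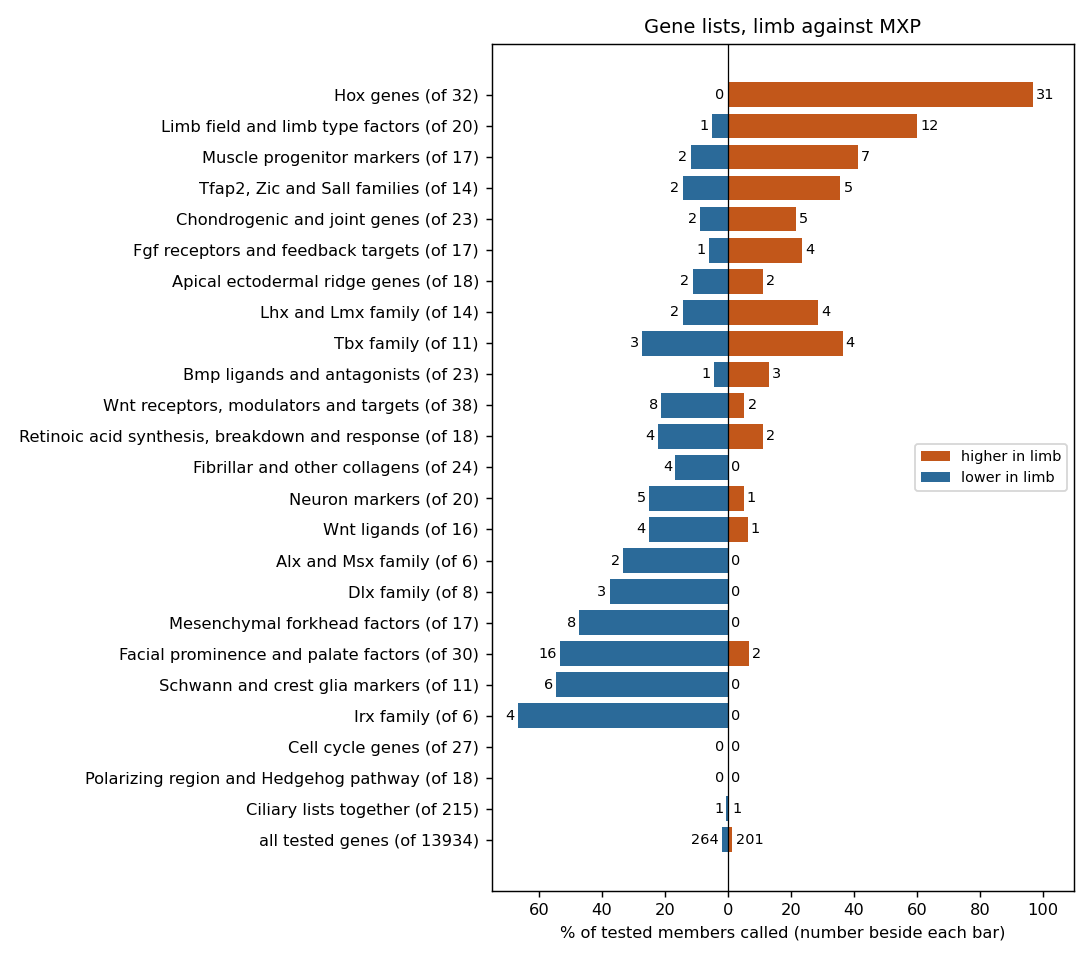
Share of the tested members of each gene list called higher in limb (orange, to the right) and lower in limb (blue, to the left), with the number of genes beside each bar and all 13934 tested genes at the bottom. Hox genes (31 of 32) and limb field factors (12 of 20) lie to the right, and Irx genes (4 of 6), glia markers (6 of 11) and facial factors (16 of 30) to the left.

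Of 27 tested cell cycle genes 0 were called in limma, with 4 at an unadjusted p under 0.05 and a median log2 difference of 0.23. Against the 3.34% called over all tested genes, nothing is read from the count of 0. The 4 at the unadjusted cutoff are not read either, because the share of all tested genes there is not given here. Of 215 tested genes of cilia, the organelles that carry Hedgehog receptors, 1 was called higher and 1 lower in limb, with a median of 0.01. The higher one was Tsga14 (also named Cep41), a ciliary protein that takes part in tubulin glutamylation. It was between 12.6 and 17.6 FPKM in limb (median 14.7), against 5.34, 7.41, 6.17, 6.47 and 7.75 FPKM in MXP (log2 difference 1.05 ± 0.08, adjusted p = 3.40e-12), with no overlap, a fold close to 2 and a call lost without MXP 1 (log2 difference 0.99, adjusted p = 3.04e-11). The lower one was Fez1, an adaptor of kinesin transport that is abundant in neurons, at between 1.47 and 5.45 FPKM in limb (median 1.96), against 13.9, 19.8, 18.5, 14.4 and 20.4 FPKM in MXP (log2 difference -2.49 ± 0.19, adjusted p = 4.32e-12). In their single cells of the mandibular prominence the authors found Fez1, like Tubb3, nearly confined to mesenchymal as against epithelial clusters. Ift20, a transport gene of the cilium, was not called, at between 33.5 and 57.5 FPKM in limb (median 36.5), against 38.6, 32.2, 32.2, 31.4 and 36.4 FPKM in MXP (log2 difference 0.19, adjusted p = 0.481).

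Tsga14 lies 39823 bases from Mest, an imprinted gene of mesoderm that was chosen after its values were seen. Mest was between 541 and 1511 FPKM in limb (median 881), against 467, 364, 310.1, 649 and 396 FPKM in MXP (log2 difference 1.06 ± 0.27, adjusted p = 0.008), and its call was lost when any one of limb 4, limb 5 and MXP 3 was left out (log2 differences from 0.90 to 0.97, adjusted p from 0.0259 to 0.036).

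The other facial tissues show where MXP itself stood apart. In the same limma fit 144 of 13934 genes (1.03%) were called between MXP and MNP and 317 (2.28%) between MXP and FNP. The comparisons share the MXP libraries, so values are set side by side and no overlap is counted. Foxl2 averaged 29.1 ± 9.09 FPKM in MXP (SD, n = 5), 1.55 ± 0.729 in MNP and 1.56 ± 0.445 in FNP (SD, n = 6 each), and MXP was called higher than MNP (log2 difference 3.56 ± 0.31, adjusted p = 1.03e-09) and FNP (log2 difference 3.52 ± 0.31, adjusted p = 6.37e-10). Irx5 averaged 38.0 ± 6.07 FPKM in MXP, 12.4 ± 3.54 in MNP and 9.60 ± 4.70 in FNP and was called higher in MXP both times (log2 difference 1.57 ± 0.37, adjusted p = 0.0133 over MNP, and log2 difference 1.99 ± 0.37, adjusted p = 0.000412 over FNP). Cyp26c1 averaged 7.29 ± 2.45 FPKM in MXP, 0.971 ± 0.329 in MNP and 0.728 ± 0.500 in FNP (log2 difference 2.04 ± 0.16, adjusted p = 9.52e-11 over MNP, and log2 difference 2.26 ± 0.16, adjusted p = 4.29e-12 over FNP).

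Other genes lower in limb were present in a further facial tissue at similar or higher levels. Barx1 averaged 110.4 ± 44.6 FPKM in MXP, 175 ± 17.5 in MNP and 4.47 ± 2.33 in FNP, so that MXP was called higher than FNP (log2 difference 4.37 ± 0.34, adjusted p = 2.87e-11) and did not pass the test against MNP (log2 difference -0.75 ± 0.34, adjusted p = 0.561). Alx1 averaged 31.0 ± 3.62 FPKM in MXP, 17.5 ± 4.37 in MNP and 120.3 ± 23.9 in FNP, so that MXP was called lower than FNP (log2 difference -1.90 ± 0.48, adjusted p = 0.01) and did not pass the test against MNP (log2 difference 0.82 ± 0.48, adjusted p = 0.932). Genes higher in limb could also be high in MNP: Hand2 averaged 1.52 ± 3.10 FPKM in MXP and 94.2 ± 11.8 in MNP (log2 difference -5.82 ± 0.32, adjusted p = 8.42e-15), and Igf2 averaged 227 ± 55.9 FPKM in MXP and 795 ± 122 in MNP (log2 difference -1.82 ± 0.43, adjusted p = 0.0136).

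Some genes were present in one tissue and nearly absent from the other. At least 1 FPKM in every limb library and under 0.1 FPKM in every MXP library was met by 30 genes, 20 of them Hox genes. The reverse was met by 3 genes, Foxl2os, AK011913 and Insc, an adaptor of oriented cell division. Insc was between 0 and 0.0574 FPKM in limb (median 0.0342), against 1.43, 1.25, 1.16, 1.60 and 1.49 FPKM in MXP (log2 difference -1.20 ± 0.08, adjusted p = 3.78e-13). The 30 included Evx1, a homeobox gene beside the HoxA cluster, and Bhlha9, a bHLH factor of the ridge in which duplications cause limb malformations in humans. Evx1 was between 2.29 and 8.06 FPKM in limb (median 7.01), against 0.0691, 0.0920, 0, 0.0878 and 0.0427 FPKM in MXP (log2 difference 2.72 ± 0.15, adjusted p = 3.11e-16). Bhlha9 was between 9.41 and 15.4 FPKM in limb (median 12.04), against 0.0835, 0.0469, 0.0509, 0 and 0 FPKM in MXP (log2 difference 3.69 ± 0.08, adjusted p = 5.98e-28). AK011913, Insc, Evx1 and Bhlha9 were named after their values were seen.

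So were the following genes, which lie outside every list. Mecom (Evi1), a zinc finger factor, was between 74.8 and 90.1 FPKM in limb (median 82.5), against 12.9, 12.4, 11.04, 20.4 and 11.5 FPKM in MXP (log2 difference 2.54 ± 0.17, adjusted p = 1.52e-13). Pmaip1 (Noxa), which promotes cell death, was between 35.4 and 66.1 FPKM in limb (median 50.3), against 2.53, 2.91, 2.33, 3.78 and 1.73 FPKM in MXP (log2 difference 3.83 ± 0.19, adjusted p = 2.76e-17). Both were high and even over the limb libraries. Hsd11b2, an enzyme that inactivates glucocorticoids, was between 29.4 and 59.3 FPKM in limb (median 41.1), against 4.02, 1.30, 0.851, 4.79 and 1.63 FPKM in MXP (log2 difference 3.71 ± 0.28, adjusted p = 4.72e-12). Evx2, the homeobox gene 8890 bases from Hoxd13, was between 0.745 and 10.1 FPKM in limb (median 6.23) and was listed at 0 in all 5 MXP libraries (adjusted p = 9.92e-09), with limb 4 again lowest. Mir762 is a short transcript and was listed at 0 in all 6 limb libraries, against between 0 and 6268 FPKM in MXP (log2 difference -8.12 ± 1.51, adjusted p = 0.000254). Its level was uneven, with MXP 1 the highest library and MXP 3 at 0 as well.

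Libraries of one tissue also differed from each other. Limb 4, sequenced in a run of its own among the limb and MXP libraries, was lowest for Hoxd13, Hoxa13, Tbx4, Pitx1, Lmx1b, Hand2 and Six2, and its library and run cannot be told apart. Without limb 4 the log2 differences were 7.48, adjusted p = 3.03e-28 for Hoxd13, 3.73, adjusted p = 2.41e-19 for Tbx4 and 2.56, adjusted p = 1.97e-09 for Lmx1b. Limb 1, 4 and 5 were above limb 2, 3 and 6 for Fgf8, Irx3, Irx5, Pax1, Hoxc6 and Rspo4, and these 3 came from 3 different runs. MXP 1 and MXP 5, also from different runs, were below MXP 2, 3 and 6 for Tbx15, Tbx18, Lef1, Pax1 and Runx2, and for Hey2, a Notch target. Hey2 had 0.936, 1.24, 1.49, 1.07, 1.08 and 1.39 FPKM in limb 1 to 6, against 9.70, 58.8, 45.2, 7.004 and 53.1 FPKM in MXP (log2 difference -3.59 ± 0.54, adjusted p = 9.62e-06). With the sequencing run as a block 231 genes were called higher and 229 lower, and Dusp6, Fgfr2, Mest, Tfap2a and Trp63 were short of the fold of 2. A further fit kept 8 limb and MXP libraries, those numbered 1, 3, 5 and 6 in each tissue, from runs that held both tissues. Limb 2, which shares a run with limb 3 and MXP 3, was left out along with limb 4 and MXP 2. The counts were 219 and 190, and 12 genes named here were not called. Of these Axin2, Fgfr2, Irx4 and Trp63 passed the adjusted p but not the fold, and Col6a2, Col6a3, Dlx2, Dusp6, Fgf8, Fst, Mest and Tfap2a had an adjusted p of 0.058 to 0.28. Developmental stage within the day, the part of the bud that was cut and litter were not recorded, and their part was not tested.

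**Figure D5:**
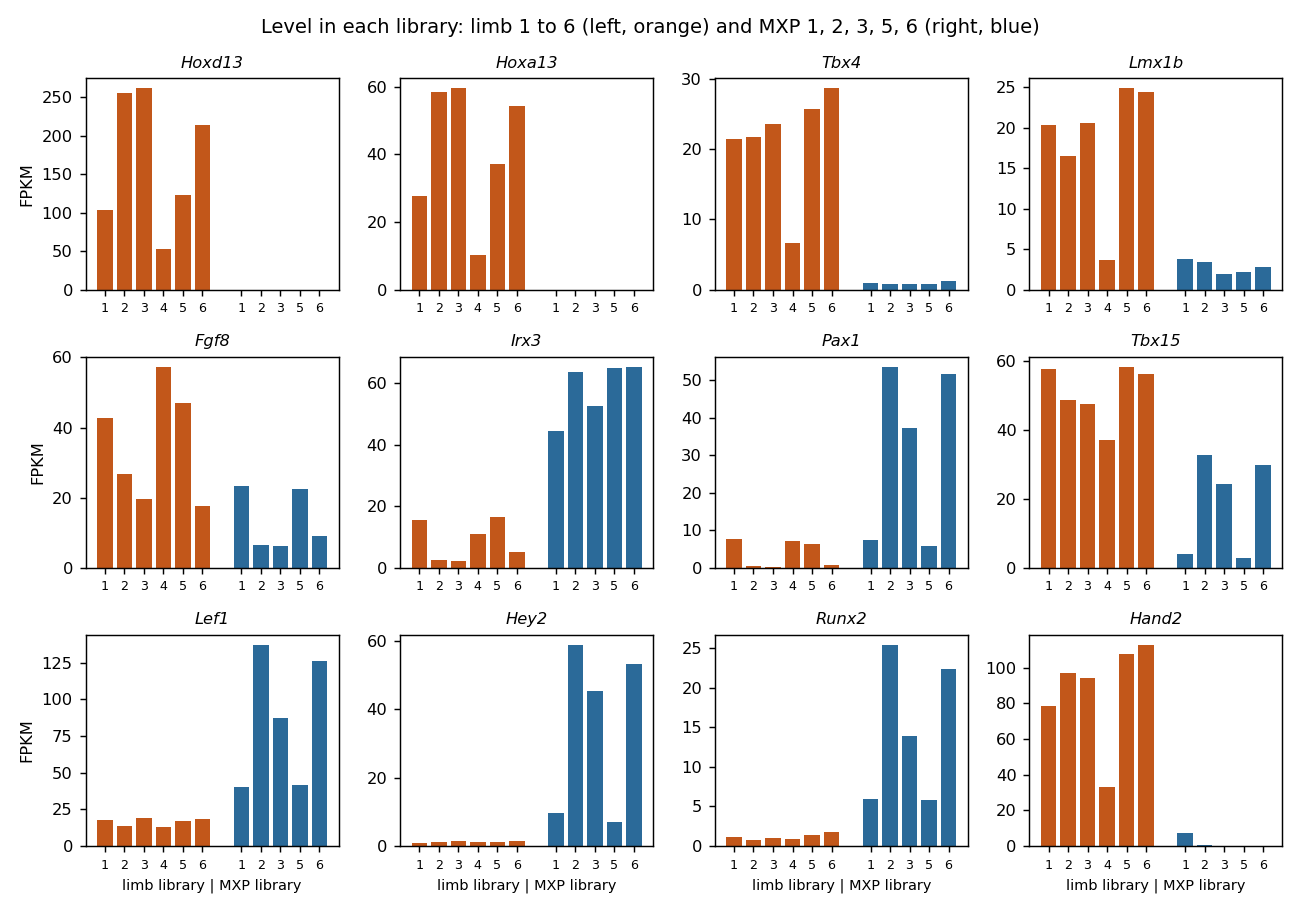
FPKM of 12 genes in each library, with limb 1 to 6 (orange) left of MXP 1, 2, 3, 5 and 6 (blue), each panel on its own scale from 0. Limb 4 is lowest for Hoxd13, Hoxa13, Tbx4, Lmx1b and Hand2, limb 1, 4 and 5 are highest for Fgf8, Irx3 and Pax1, and MXP 1 and 5 are lowest of the MXP libraries for Tbx15, Lef1, Hey2, Runx2 and Pax1.

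The tables are per transcript, so the share of each transcript in its gene was compared too. Over 19355 transcripts of 5756 genes, limma called 0 shares (adjusted p under 0.05, difference in share of 0.2 or more), and 971 had an unadjusted p under 0.05. Among 19355 transcripts, 971 is about the number that this cutoff marks by chance alone, so they are not read as differences. With all 35 libraries in the fit 6 transcripts of 4 genes were called (in Celf2, Net1, S100a16 and Wwp2), without MXP 5 the count was 5 of 3 genes, and without limb 4 it was 3 of 2 genes. The transcript uc009nhx.1 of Wwp2, a ubiquitin ligase gene of cartilage, took a share of 0.430 ± 0.091 in limb and 0.110 ± 0.037 in MXP (SD, n = 6 and 5, adjusted p = 0.149). The transcript uc007pjd.2 of Net1 took 0.582 ± 0.052 in limb and 0.785 ± 0.041 in MXP (SD, adjusted p = 0.149). The largest difference, for uc008nod.1 of Sla2, was 0.741 ± 0.336 in limb and 0.0206 ± 0.0268 in MXP (SD, adjusted p = 0.396), with a wide spread over the limb libraries. Celf2, Net1 and S100a16 were named after the counts were seen.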

How the data were processed

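RNA-seq of 35 tissue pools from CD1 embryos at embryonic day 11.5 was analysed, of which 6 limb and 5 MXP libraries are compared here. The authors deposited FPKM per transcript, made with Cufflinks on mm10, with a status and a coverage value for each transcript. The aligner behind these estimates is not given in the sources used here. Bowtie2 and DESeq2 are listed in the submitters' processing notes beside the build. The authors used DESeq2 to normalize other expression values and Bowtie2 with RSEM in a separate workflow, and neither is stated for the Cufflinks tables. The deposited coverage signal, read depth per base, served only to describe depth. Each table held 59120 transcripts. A space in the gene name shifted the columns of 65 of them, which were dropped, and FPKM was summed over 30723 gene symbols. For 400 genes some limb or MXP value had a status other than OK, including the same 404 transcripts marked as low data in limb 1 and in MXP 1, and these values were kept.

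The filter kept 13934 genes whose tissue mean reached 1 FPKM in any of the 6 tissues. Their log2(FPKM + 1) was fitted over all 35 libraries, with 1 mean per tissue and no covariate, by limma 3.58.1 under R 4.3.3 (moderated with trend and robust set). A fold change on this scale understates the change of low genes. Tables were joined with pandas 2.3.3 (Python 3.11.15). Scripts were tested on simulated data. Genes were called at an adjusted p under 0.05 (Benjamini-Hochberg) and a fold of at least 2. Shares of transcripts in the FPKM of their gene, for genes of at least 5 FPKM in both tissues, were compared in the 11 libraries with limma, called at a difference of at least 0.2. Pools numbered alike are not stated to share a litter or day.

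Members and the 59 gene lists (970 symbols, of which 13 had no match in the tables) were chosen with earlier results of these data known. Genes were named by rule: the 10 called genes of largest fold in each direction without overlap, up to 6 called and 2 uncalled members of each list, all called members of the Hox, Dlx, Alx, Msx, Lhx, Tbx and Pax families with Tbx4, Tbx5 and Pitx1, called ciliary genes with Cep41, and the 6 transcripts of largest difference in share. Axin2, Gli1, Met, Nr2f1, Prrx2, Ptch1, Shh and Shox2 were also named after their values were seen. Some genes that the rule names are not reported here. A planned count of genes called both against limb and against MNP or FNP is not given, because these comparisons share the MXP libraries. Alternatives were another added constant, filters, scalings, sample sets, blocks, a test against a fold of 1.5 and libraries left out.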

Additional observations from a re-analysis of the deposited data

Results flagged for a closer look

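For each gene named in the text, each tissue in which the highest library reached 1 FPKM was tested for a library set apart from the rest by Dixon's range test at 95%. This was done for 258 gene and tissue pairs, and 23 had such a library. Chance alone marks about 1 in 20.

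Limb 4 stood below the other limb libraries for Tbx4 (6.70 FPKM), Evx1 (2.29 FPKM), Tfap2a (3.38 FPKM) and Ptch1 (15.1 FPKM), and above them for Hoxa2 (3.27 FPKM), Alx1 (2.47 FPKM) and Ift20 (57.5 FPKM). Limb 1 stood above the others for Tubb3 (17.3 FPKM), Fez1 (5.45 FPKM), Pou3f3 (1.41 FPKM) and 2610017I09Rik (3.46 FPKM). These 4 averaged more in dorsal and ventral neural tissue than in limb or MXP: Tubb3 444 and 551 FPKM, Fez1 81.2 and 102 FPKM, Pou3f3 60.4 and 60.9 FPKM, and 2610017I09Rik 145 and 191 FPKM. The part of neural tissue in the limb 1 pool was not tested. Limb 6 stood above the others for Col2a1 (110.2 FPKM), Wwp2 (59.4 FPKM), Col6a1 (6.595 FPKM), Myod1 (13.7 FPKM) and Sox10 (2.87 FPKM), genes of cartilage, matrix, muscle and glia.

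Among MXP libraries, MXP 1 stood above the rest for Hand2 (7.05 FPKM), Nefl (11.3 FPKM) and Mir762 (6268 FPKM). MXP 2 stood above the rest for Meis2 (54.5 FPKM), Ptch1 (42.7 FPKM) and Celf2 (10.3 FPKM), and MXP 5 for Mecom (20.4 FPKM). None of these libraries was left out of the comparison of limb with MXP.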

How the results depend on the processing

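With 0.1 added in place of 1 before the logarithm, 336 genes were called higher in limb and 511 lower. Against a fold of 1.5 (limma's treat) the counts were 129 and 134, and in replicates 4 to 6 alone, where fewer samples were fitted, 111 and 92. Leaving out each library in turn gave 173 to 222 genes higher and 225 to 326 lower. With the replicate number as a block, 215 genes were higher and 246 lower. The labels give the same numbers to limb and MXP libraries without stating a shared litter or day. The deviations of same-numbered libraries from their tissue means correlated at 0.0078 (number 2), 0.111 (number 3), 0.365 (number 1), 0.411 (number 5) and 0.423 (number 6), and limb 2 and limb 3 correlated best with an MXP library of another number, so the numbers were not taken as pairs. Of 138 called genes named in the text, 4 lost the call under the block: Dusp6 (log2 difference 0.94), Mest (0.93), Tfap2a (-0.90) and Trp63 (-0.98). With the sequencing run as a block the counts were 231 and 229. With only the limb and MXP libraries numbered 1, 3, 5 and 6 they were 219 and 190. Quantile normalization gave 210 and 239, and rescaled sums 175 and 273, with a median over all genes of -0.0425. Without limb 4 and MXP 1 together the counts were 223 and 256, and without all libraries numbered 1 they were 193 and 279. These last 2 settings and the one without genes of a failed estimate (200 and 259) were chosen after seeing the data. The 31 calls of Hox genes varied from 30 to 32 over all settings, and the 16 lower facial factors from 9 to 17. Lower calls ranged from 1 to 10 among neuron markers (5 in the comparison itself) and from 3 to 10 among Wnt receptors, modulators and targets (8), and higher calls from 3 to 8 among muscle progenitor markers (7). The 4 higher calls among Fgf receptors and feedback targets became 0 in replicates 4 to 6 alone and against a fold of 1.5, and 1 with rescaled sums and without MXP 3. Of the 138 called genes 86 kept their call under every alternative, 50 lost it in replicates 4 to 6, 29 against a fold of 1.5, 26 under some other setting and 15 without some single library. Of 22 named genes that were not called, 5 (Hoxb6, Msx1, Net1, Pax9 and Twist1) were called under some alternative, Msx1 and Twist1 among them in the limb and MXP libraries alone. No gene named in the text reversed under any alternative run. The short transcript Mir762 has no value once transcripts under 200 bases are left out. Shares of transcripts were called for 6 transcripts with all 35 libraries, and for 0 to 5 when a library was left out (5 without MXP 5 and 3 without limb 4). The limb against MXP change differed between replicates 1 to 3 and 4 to 6 for 0 of 13934 genes by limma's interaction test, and for 61 at an unadjusted p under 0.05. As 61 is far fewer than chance alone would mark, this test cannot show that the sets agree. Depth in reads per gene is not known from FPKM, so values under 0.1 FPKM are read only as low.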
